A study of Mus musculus with 2 samples.

Results

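The 9 genes described here encode the kinase P-TEFb, its inhibitors and a set of RNA polymerase II (Pol II) elongation factors, and were taken by symbol from a table of 25791 gene rows (Hexim1, Hexim2, Cdk9, Ccnt1, Ccnt2, Supt5h, Supt6h, Larp7 and Ell). RNA was sequenced from ESREs (Extensively Self-Renewing Erythroblasts), mouse erythroid precursors that divide for long periods in culture. The expansion group held ESREs kept dividing, and the maturation group held ESREs matured for 1 day. Both carry the label C57/bl6 for genetic background, and the title of the series speaks of mice transgenic for a β-YAC, a yeast artificial chromosome with the human beta globin locus. The series text mentions biological duplicates, but the table has 1 FPKM value (fragment number scaled by transcript length and by the total of the library) per gene and group. No difference below therefore has a replicate check, no p-value or SD is given, and whether neighbouring levels differ beyond the spread between cultures was not tested.

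Pol II pauses shortly after it starts to transcribe many genes, held by the factors DSIF and NELF. P-TEFb, made of CDK9 and a cyclin T, phosphorylates DSIF, NELF and the tail of Pol II, which lets the polymerase move into the gene. Much of the P-TEFb in a cell is kept inactive on the 7SK small nuclear RNA, where HEXIM1 or HEXIM2 blocks the kinase and LARP7 and MEPCE stabilise the RNA. In erythroid cells, elongation control by TRIM33 (TIF1 gamma), P-TEFb and the FACT histone chaperone is known from zebrafish genetics.

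After 1 day of maturation the genes fell into 2 sets by size of difference. Hexim1, Supt5h, Cdk9 and Supt6h stood at 57.1%, 64.3%, 67.8% and 75.2% of their expansion FPKM. Ccnt2, Ccnt1, Larp7, Ell and Hexim2 stood at 99.0%, 99.0%, 96.6%, 95.4% and 94.1%. The inhibitor Hexim1 and the kinase Cdk9 were thus lower, while both cyclin T genes had nearly the same value in the 2 groups. Most expressed rows were lower too, 6866 of the 9263 with at least 1 FPKM in a group. Relative to the median of these rows Hexim1, Supt5h and Cdk9 were still lower, Supt6h only slightly so, and both cyclin T genes were higher. The noncoding partner, 7SK RNA (Rn7sk), was 2.77-fold higher. This was not particular to 7SK, as 15 of 18 other short noncoding RNA rows, picked after their values were seen, were higher by 2-fold or more.

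Sequences of 7SK RNA and of the stretches just upstream of Hexim1 and Cdk9 are shown because these are the RNA that holds the inhibitor, the inhibitor and the kinase. The start of 7SK (bases 1 to 100 of 331, DNA letters, from GENCODE M21) has 3 GATC stretches in capitals, beginning at bases 13, 42 and 64. GATC repeats in this first hairpin are known as the place where HEXIM1 binds. The promoter stretches are the 250 bases before the annotated start, from RefSeq on GRCm38.p6. Hexim1 is at chr11:103116075-103116324 on the plus strand, and Cdk9 at chr2:32712785-32713034 on the minus strand. Capitals in these mark matches to TATAA and to the GC box GGGCGG, searched on both strands.
Rn7sk: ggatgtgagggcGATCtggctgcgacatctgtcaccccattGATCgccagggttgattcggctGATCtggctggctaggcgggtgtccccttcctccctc
Hexim1 promoter: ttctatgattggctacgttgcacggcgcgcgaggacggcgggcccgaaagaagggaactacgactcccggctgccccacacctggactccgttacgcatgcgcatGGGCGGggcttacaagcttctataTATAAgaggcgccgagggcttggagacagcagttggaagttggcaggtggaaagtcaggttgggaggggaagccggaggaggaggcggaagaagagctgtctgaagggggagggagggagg
Cdk9 promoter: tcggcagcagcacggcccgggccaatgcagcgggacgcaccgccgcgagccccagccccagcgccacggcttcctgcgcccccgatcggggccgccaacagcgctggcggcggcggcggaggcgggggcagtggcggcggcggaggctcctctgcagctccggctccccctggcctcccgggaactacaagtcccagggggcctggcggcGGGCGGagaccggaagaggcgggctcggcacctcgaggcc

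The RefSeq promoter table matched 8 of the 9 genes, with Supt5h and Supt6h found under their current symbols Supt5 and Supt6, and Hexim2 was not matched. In the 250 bases upstream, TATAA was found at Hexim1 alone among the 8, 121 bases before the annotated start, and in 23.5% of 27025 promoters. GGGCGG was found at 7 of the 8, all but Supt6h, and in 32.9% of all promoters. The erythroid motif letters GATAA were found at none of the 8 and in 23.0% of all promoters. The cyclic AMP response element TGACGTCA was found at Larp7 alone among the 8, and in 1.62% of all. The E-box CACGTG was at none of the 8 and in 6.05% of all, and CCAAT at Hexim1, Cdk9, Ccnt2 and Larp7 and in 34.5%. The GC content of the 8 stretches lay between 56.8% (Supt6h) and 78.8% (Cdk9), against a median of 52% over all promoters. These are letter matches, chosen after the sequences were seen, and describe the windows alone.

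**Figure D1:**
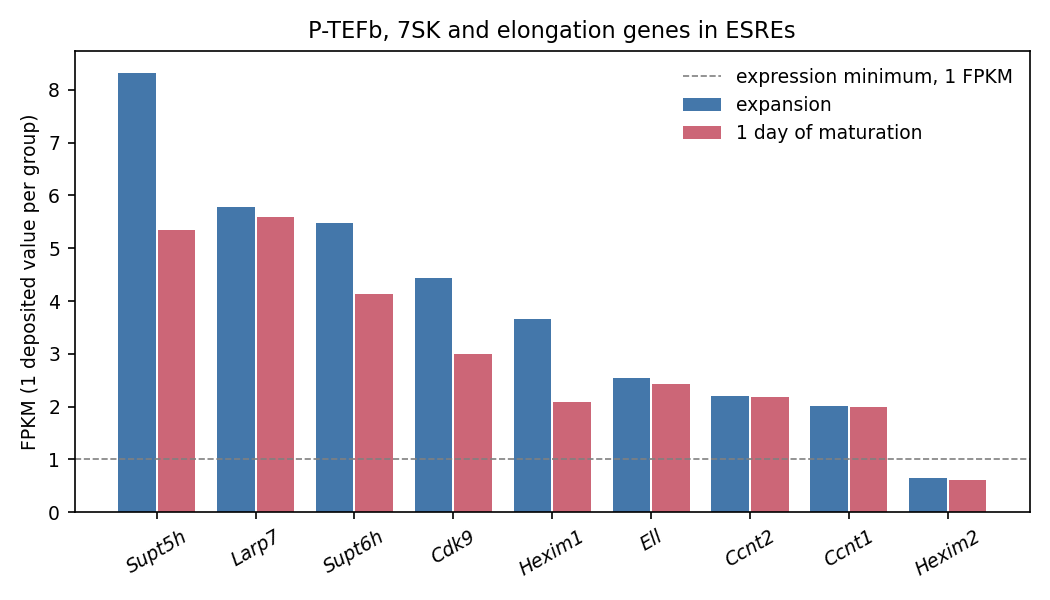
FPKM of the 9 genes in expansion and after 1 day of maturation, ordered by the expansion value, with 1 deposited value per bar and no error bar. Supt5h is highest in expansion at 8.33 FPKM and Larp7 in maturation at 5.59, while Hexim2 lies under the expression minimum of 1 FPKM in both.

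The inhibitors come first. Hexim1, which binds 7SK and then blocks CDK9, is on chromosome 11 (mm9 102977639 to 102981039) and has 1 exon in GENCODE. Hexim1 had 3.66 FPKM in the expanding cells and 2.09 after maturation, a 1.75-fold lower value. Its log2 ratio of maturation over expansion, computed on FPKM + 1, was -0.59, and 20.1% of the 9263 expressed rows (at least 1 FPKM in a group) had a lower ratio. Hexim2, the paralog that can take the place of HEXIM1 on 7SK, lies 13613 bases downstream (102994653 to 103001222). It was at 0.642 and 0.604 FPKM, so it did not reach the expression minimum in either group. Hexim2 equalled 0.175 of Hexim1 in expansion and 0.289 in maturation, on the per-length FPKM scale. The summed FPKM of both inhibitors was 4.30 in expansion and 2.69 in maturation, so most of it was Hexim1 in each group. Acbd4, the row 4125 bases from Hexim1, was at 1.503 and 2.50 FPKM, higher in maturation where Hexim1 was lower. Hexim1 and Hexim2 transcripts shared none of their stretches of 36 bases with each other or with any other GENCODE gene.

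The kinase and its cyclins differed in pattern. Cdk9, the catalytic subunit on chromosome 2 (32561302 to 32568304), was at 4.43 FPKM in the expanding cells and 3.001 after maturation (1.48-fold lower, log2 ratio -0.44). Ccnt1, encoding cyclin T1 on chromosome 15 (98373642 to 98401295), was at 2.01 and 1.99 FPKM. Ccnt2, encoding cyclin T2 on chromosome 1 (129670741 to 129701414), was at 2.20 and 2.18 FPKM. The FPKM of Ccnt2 relative to Ccnt1 was 1.10 in both groups, so the balance of the cyclin T RNAs was the same to 3 digits. The summed cyclin T FPKM was 4.21 and 4.17, and its ratio to Cdk9 was 0.951 in expansion and 1.39 in maturation. Hexim1 relative to Cdk9 was 0.827 and 0.697, and both inhibitors together relative to Cdk9 were 0.972 and 0.898. Ratios between genes of a group do not depend on scaling between groups. Of the stretches of 36 bases in Ccnt1 transcripts 9.15% also occur in other genes, mostly 9330020H09Rik, a row whose locus overlaps Ccnt1 and which was at 0.277 and 0.279 FPKM.

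Larp7, which binds the 3′ end of 7SK RNA and keeps it stable, is on chromosome 3 (127239632 to 127256267). Its values were 5.79 FPKM in expansion and 5.59 in maturation. Relative to Hexim1, Larp7 was at 1.58 and 2.68. Of its stretches of 36 bases 18.5% also occur in other genes, mostly Gm12666, so reads could be divided between them. The rows of Mir302a, Mir302b, Mir302c, Mir302d and Mir367, microRNAs within the Larp7 locus, were listed at 0 in both groups. Mepce, the enzyme that caps the 5′ end of 7SK, was at 4.21 and 3.23 FPKM, or 0.728 and 0.577 of Larp7.

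Rn7sk, on chromosome 9 (78023109 to 78023440), had an FPKM of 393 in expansion and 1090.3 in maturation, with a log2 ratio of 1.47. This direction is opposite to that of Hexim1 and Mepce and differs from the near-equal values of Larp7. FPKM of so short an RNA depends strongly on the length model, and 70.6% of its 36-base stretches also occur in 13 other annotated genes. Of 18 other expressed rows of U, 5S, 4.5S, RNase P and RNase MRP RNAs, picked after their values were seen, 15 were higher by 2-fold or more and 1 was lower by as much (median log2 ratio 1.86). The part that library preparation of short RNAs had in the 7SK value was not tested.

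The elongation factors followed. Supt5h, the large subunit of DSIF and a substrate of P-TEFb, is on chromosome 7 (29099913 to 29123738) and was at 8.33 and 5.35 FPKM (1.56-fold lower, log2 ratio -0.55). Of its stretches of 36 bases 8.82% also occur in other genes, most of them in Gm44709. Supt6h, a histone chaperone that travels with Pol II, is on chromosome 11 (78020251 to 78059205) and was at 5.49 and 4.12 FPKM (1.33-fold lower, log2 ratio -0.34). Ell, which raises the rate of Pol II and is part of the super elongation complex, is on chromosome 8 (73063574 to 73116757) and was at 2.54 and 2.43 FPKM. Supt5h was thus the highest of the 9 in expansion, whereas in maturation Larp7 at 5.59 FPKM stood above it. From highest to lowest the order in expansion was Supt5h, Larp7, Supt6h, Cdk9, Hexim1, Ell, Ccnt2, Ccnt1 and Hexim2. In maturation it was Larp7, Supt5h, Supt6h, Cdk9, Ell, Ccnt2, Hexim1, Ccnt1 and Hexim2, so Hexim1 went from the fifth to the seventh place.

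Of the 9 genes 8 passed the expression minimum, each in both groups. A value at least 2-fold higher was seen for none of the 8, against 3.13% of the expressed rows. A value at least 2-fold lower was also seen for none, against 6.70%. All 8 had a log2 ratio below 0, as did 6866 of the 9263 expressed rows, and the median of the 8 was -0.19 against -0.25 over all rows. Relative to the median of all rows, Hexim1 (-0.35), Supt5h (-0.31), Cdk9 (-0.19) and Supt6h (-0.09) were lower, and Ell (0.20), Larp7 (0.21), Ccnt1 (0.24) and Ccnt2 (0.24) were higher. The direction of the first 4 was the same under each scaling tried, whereas that of the other 4 turned from below 0 as deposited to above 0 under all 3 other scalings.

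**Figure D2:**
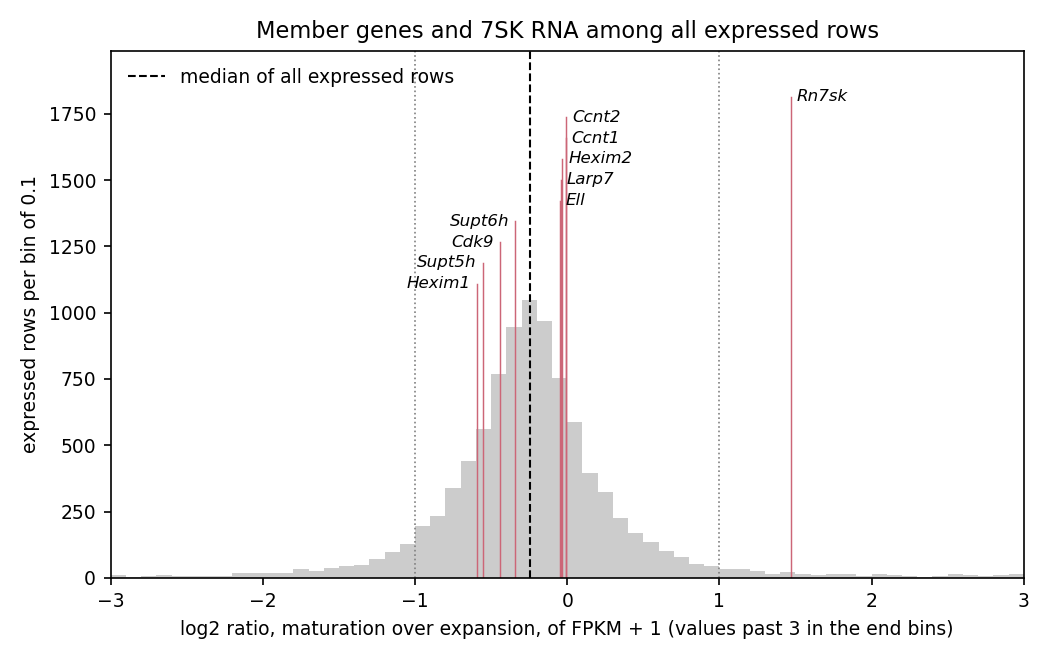
Histogram of the log2 ratio of maturation over expansion (FPKM + 1) for the 9263 expressed rows, with red lines at the 9 genes and at Rn7sk; the dashed line is the median of -0.25 and dotted lines mark 2-fold. Hexim1, Supt5h, Cdk9 and Supt6h lie left of the median, the other 5 genes lie right of it near 0, and Rn7sk lies at 1.47.

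The rows whose pair of values was nearest to that of Hexim1, by distance of log2(FPKM + 1) over the 2 groups, were Anapc4, 2610002J02Rik, Wdr7, Ctnnbl1 and Lgals8. Anapc4, a subunit of the anaphase-promoting complex, was at 3.62 and 2.12 FPKM. With 2 values per gene such likeness is common, as 54 rows lay within a distance of 0.1.

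Factors that release P-TEFb from 7SK or bring it to genes were close to the median of all rows. None of the 6 was past 2-fold, 3 lay above the median of all rows, and the list median was -0.22, a sign that turned to 0.03 after centring on all rows. Brd2 and Brd3, bromodomain proteins that bind acetylated chromatin, were at 10.3 and 9.48 FPKM and at 3.83 and 2.84. Jmjd6, which takes part in the release of paused Pol II, was at 6.06 and 4.33 FPKM. The phosphatase genes Ppm1g and Ppp1ca, whose products can free P-TEFb from 7SK, were at 29.6 and 29.4 FPKM and at 57.2 and 55.2. Trim33 was low in both groups, at 1.64 and 1.11 FPKM.

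The super elongation complex was uneven. Of 9 listed genes 7 were expressed and none was past 2-fold on the FPKM + 1 scale, with a list median of -0.16 (0.09 after centring). Aff4, a scaffold that holds P-TEFb in this complex, was at 2.02 and 0.554 FPKM, a 3.66-fold lower FPKM whose log2 ratio of -0.96 is damped by the pseudocount. Aff1 of the same list, named after its values were seen, went the other way, at 1.07 and 1.39 FPKM. Eaf1, an ELL partner, was at 8.89 and 4.496 FPKM, and Mllt3 (AF9) at 8.48 and 4.67. Ell2, the paralog of Ell, was at 6.44 and 8.53 FPKM, higher in maturation, so its ratio to Ell was 2.53 and 3.51.

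The pausing factors that P-TEFb acts on were mixed. Supt4h1, the small subunit of DSIF, had an FPKM of 20.7 in expansion and 30.8 in maturation (1.49-fold higher), the opposite direction to its partner Supt5h. Of the NELF genes, Rdbp (NELF-E) was at 7.46 and 5.79 FPKM, Whsc2 (NELF-A) at 4.84 and 4.17, and Cobra1 (NELF-B) at 5.22 and 4.56. Th1l (NELF-C/D), named after its values were seen, went the other way, at 5.17 and 5.72 FPKM. In all 5 genes of this list had a row and none was past 2-fold. Relative to the median of all rows 4 of the 5 lay above it, Whsc2 and Cobra1 only slightly so, and Rdbp alone lay slightly below. The list median was -0.16, or 0.08 after centring. The listed Supt4h2 had no match and was not analysed here.

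All 6 PAF1 complex genes, whose products travel with Pol II and link it to histone modification, lay below the median of all rows. Their list median was -0.39, and none was past 2-fold. Rtf1 was at 3.72 and 1.94 FPKM, Paf1 at 4.74 and 3.25, Ctr9 at 3.05 and 2.05, and Cdc73 at 3.92 and 2.77. The list of other histone chaperones and their partners was mixed, with no gene past 2-fold. Supt16h and Ssrp1, which form FACT, were at 11.3 and 12.2 FPKM and at 17.4 and 18.6, while Iws1, the SPT6 partner, was at 1.86 and 1.75, and Setd2, a histone methyltransferase bound to elongating Pol II, at 3.07 and 2.22. All 4 expressed TFIIS and elongin genes lay above the median of all rows (list median 0.04). Tcea1 (TFIIS) was at 12.6 and 13.6 FPKM, Tceb1 at 16.8 and 16.9, Tceb2 at 44.3 and 46.2 and Tceb3 at 4.65 and 4.75. Tcea2 and Tcea3 of this list, named after their values were seen, were under 1 FPKM in both groups. Tcea2 was lower in maturation, at 0.916 and 0.290 FPKM, and Tcea3 was at 0.387 and 0.348.

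Among 10 genes of the Pol II tail, its kinases and phosphatases, 1 was lower by 2-fold or more, against 6.70% of all expressed rows. None was higher by as much. The list median was -0.31 against -0.25 over all rows, or -0.06 after centring. The gene past 2-fold was Ssu72, a phosphatase of the Pol II tail, at 12.1 and 4.01 FPKM (3.02-fold lower). Rpap2, a further tail phosphatase, was at 1.59 and 0.684 FPKM, Ctdp1 (FCP1) at 2.55 and 1.60, and Cdk7, the tail kinase of TFIIH, at 1.59 and 1.01. Polr2a, the largest Pol II subunit, named here after its values were seen, was at 12.3 and 13.6 FPKM. Over all 47 expressed genes of these lists outside the 9, Rn7sk alone was past 2-fold upward and Ssu72 alone past it downward. Among all expressed rows 3.13% were past 2-fold upward and 6.70% downward, so neither count exceeded the general share. Of the 47 genes, 23 lay above the median of all rows. With a pseudocount of 0.1, Aff4 and Rpap2 were also lower by 2-fold or more, whereas with a pseudocount of 5 Ssu72 no longer was, and Rn7sk alone remained past 2-fold.

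Genes of proteins that are known to bind HEXIM1 away from 7SK had lower RNA values in maturation, as did most expressed rows. Nr3c1, the glucocorticoid receptor, was at 2.40 and 1.32 FPKM, Npm1 (nucleophosmin) at 205 and 111, and Mdm2, a ubiquitin ligase of p53, at 5.66 and 3.59. All 3 lay below the median of all rows and none was past 2-fold. The list median was -0.55 against -0.25 over all rows, or -0.30 after centring.

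**Figure D3:**
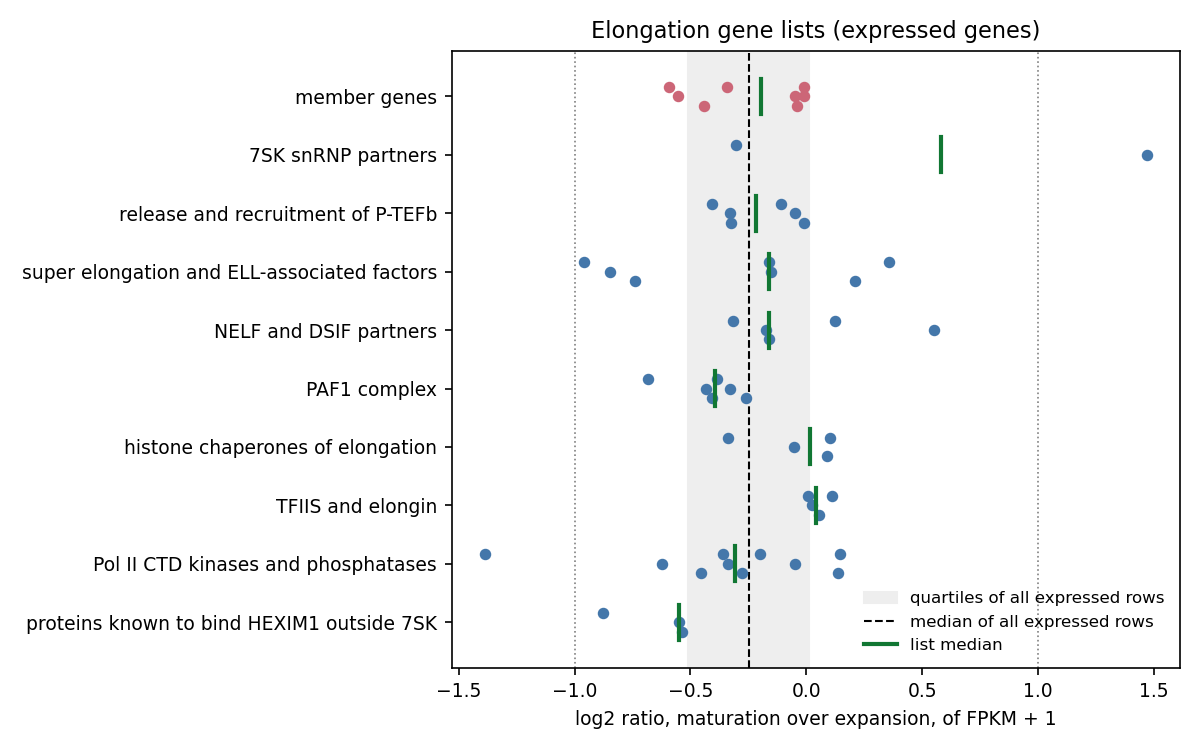
Log2 ratio of maturation over expansion (FPKM + 1) of each expressed gene in the lists, with the 8 expressed genes of interest in red on the top line; green ticks are list medians, the grey band spans the quartiles of all expressed rows (-0.51 to 0.01) and dotted lines mark 2-fold. Rn7sk and Ssu72 alone lie past 2-fold, and all PAF1 points lie left of the dashed median, Wdr61 only just.

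Cell identity was checked on marker genes. All 8 erythroid markers were expressed and higher in maturation, with a summed FPKM of 3085 and 13308. Mast cell markers summed to 24.6 FPKM in expansion and 2.43 in maturation, and megakaryocyte markers to 22.8 and 4.16. Both sums were lower in maturation, as were all of the 9 genes and 6866 of the 9263 expressed rows, but the markers differed by more. All 4 expressed mast cell markers and 3 of the 4 expressed megakaryocyte markers were lower by 2-fold or more, against 6.70% of all expressed rows. Their median log2 ratios were -2.11 and -1.89, against -0.25 over all rows. Gp9, 1 of the 4 expressed megakaryocyte markers, went the other way, at 0.756 and 1.84 FPKM. Of these lists 4 of 6 and 4 of 7 genes were expressed, with Mcpt8 at 0 in both groups and Pf4 under 1 FPKM in both. No granulocyte or lymphocyte marker reached 1 FPKM, and of the macrophage markers Cd68 alone did, at 1.18 and 0.539. The part of such cells in the values of the 9 genes was not tested, and fewer cells of a type and less RNA per cell cannot be told apart in bulk RNA.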

How the data were processed

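The deposited table holds FPKM values, which the authors scaled by transcript length and library, 1 value per gene and group. The submitters' processing notes list Cuffdiff 2.0.2 and the build mm9. Which aligner, annotation and filters were used, and whether duplicates were pooled, was not given in the sources used here. RNA was extracted with a Qiagen kit and libraries made with a NextFlex kit, per the labels' protocols. Start positions were taken as counted from 0 and are printed from 1. Of the 190 microRNA rows within 1 base of their RefSeq length, all 190 matched it when counted so. MicroRNA rows further from it were not compared. Python 3.11.15 with pandas 2.3.3 was used. Log2 ratios used a pseudocount of 1, a row counted as expressed at 1 FPKM or more in a group, and 2-fold is a rule of size on the log2(FPKM + 1) scale, not a test, so differences of weakly expressed genes are understated. Ratio code was checked on simulated data. Shared sequence was counted as stretches of 36 bases, on either strand, in GENCODE M21 transcripts.

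Depth was judged after the values were seen. Among 6593 rows under 0.05 FPKM in both groups, 118 had an expansion to maturation ratio within 0.001 of 1.121, and 35 and 24 rows lay at 1/2 and 2 times it within the same tolerance, so a counted fragment appears to be worth 1.12 times as much FPKM in expansion. A tighter tolerance on this ratio, with under 0.05 FPKM in maturation, left 8 rows with 1 GENCODE transcript over 1500 bases. If each of these holds 1 fragment per group, Hexim1 would rest on about 2646 fragments in expansion and 1693 in maturation (median of the 8 rows). The counting error would be 1.94% and 2.43%. The row that gives the least would put the fragment numbers of Hexim1 at 1506 and 964. The estimate uses GENCODE lengths and covers counting error only. If the deposited values are means over duplicates, a step would be a part of 1 fragment, and the fragment numbers and counting errors would differ.

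The 9 genes and all lists were chosen with earlier results of these data known. The named genes were the 9, the 7SK and P-TEFb release lists, up to 4 expressed genes of each other list with the largest absolute log2 ratio, and the 5 rows nearest to Hexim1. Some list entries were not analysed here and are outside the list counts, which do include analysed genes that the text does not name. Alternatives changed the pseudocount, the expression minimum and the scaling.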

Additional observations from a re-analysis of the deposited data

How the results depend on the processing

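None of the expressed genes among the 9 passed 2-fold in either direction under any of the 7 alternatives run. Their median log2 ratio, -0.19 as reported, was -0.23 with a pseudocount of 0.1, -0.11 with 5, -0.0487 with no filter on low values and -0.34 with a minimum of 5 FPKM, which leaves 3 genes. It was 0.0527 after centring on all expressed rows, the reverse direction, -0.0025 when protein-type rows were scaled to the same total and -0.0326 with equal upper quartiles. Centring adds 0.25 to each log2 ratio, while the other scalings multiply maturation FPKM by 1.19 and 1.16. In the other lists the count of genes at least 2-fold lower, 1 as reported, was 3 with a pseudocount of 0.1 (Ssu72, Aff4 and Rpap2) and 0 with 5, where Ssu72 was lost. The log2 ratio of Hexim1 ran from -0.78 to -0.29 and that of Cdk9 from -0.55 to -0.19 over the alternatives. No paired analysis was possible because the table has 1 value per group and no replicate numbers. The spread between cultures is unknown, and counting error was estimated for Hexim1 alone.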
